A study of Homo sapiens with 20 samples.

Results

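The genes described here are 7 secreted antagonists of Wnt signalling, namely SFRP1, SFRP2, SFRP4, SFRP5, DKK1, DKK3 and WIF1. They were found by symbol and are 7 of the 36076 genes in an mRNA-seq table of human lung cancer cells. The 6 lines were H1299, H1792, PC9, A549 and the related pair CL1-0 and CL1-5. Cells of each received 100 nM decitabine (DAC), a cytosine analogue that is built into DNA and depletes DNA methyltransferases, for 72 hours with daily renewal, and were then kept without the drug for 3 days. The Mock cells of each line received the PBS vehicle. mRNA-seq was done in all 6 lines (12 libraries) and Omni-ATAC-seq, which maps accessible chromatin with a transposase, in A549, CL1-5, PC9 and H1299 (8 libraries), with 1 library per line and treatment, so that the lines are the only replicates and a value within a line has no replicate check. CL1-0 and CL1-5 came from National Taiwan University, and each line is a long-established culture rather than a tumour.

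Wnt proteins are lipid-modified ligands that bind Frizzled receptors together with the co-receptors LRP5 or LRP6, which stabilises beta-catenin and turns on TCF/LEF target genes. Secreted frizzled-related proteins (SFRP1, SFRP2, SFRP4, SFRP5) carry a Frizzled-like cysteine-rich domain and bind Wnt ligands outside the cell, and WIF1, the Wnt inhibitory factor, also binds the ligands themselves. DKK1, the founding Dickkopf protein, instead binds LRP5 and LRP6 and is itself a target of beta-catenin in many cells, while DKK3 is a divergent Dickkopf protein whose action on LRP6 is less clear. Several of these genes have CpG-rich promoters that are known to be methylated in carcinomas, lung cancer included, which is why their level in Mock cells and after a DNA methyltransferase inhibitor is of interest.

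The bases just before the transcription start are shown for 5 of the 7 genes, because CpG dinucleotides are the sites that DNA methyltransferases methylate and because the ATAC-seq peaks described further on lie over or beside them. The sequences come from RefSeq (GRCh38.p14 promoter table, which matched 5 of 7 members by symbol) and were placed by exact match on GRCh37, the build of the peak lists. Each is the 250 bases up to the base before the start, read in the direction of transcription, and capitals mark each CpG. They lie on chr12:65515086-65515335 (minus strand, WIF1), chr10:54073791-54074040 (plus strand, DKK1), chr10:99531757-99532006 (minus strand, SFRP5), chr7:37956420-37956669 (minus strand, SFRP4) and chr4:154710236-154710485 (minus strand, SFRP2).
WIF1: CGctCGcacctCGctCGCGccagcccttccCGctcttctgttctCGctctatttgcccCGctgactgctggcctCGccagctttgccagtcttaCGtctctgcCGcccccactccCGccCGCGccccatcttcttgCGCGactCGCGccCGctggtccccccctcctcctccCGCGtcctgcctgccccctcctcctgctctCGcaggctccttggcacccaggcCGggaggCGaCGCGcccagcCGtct
DKK1: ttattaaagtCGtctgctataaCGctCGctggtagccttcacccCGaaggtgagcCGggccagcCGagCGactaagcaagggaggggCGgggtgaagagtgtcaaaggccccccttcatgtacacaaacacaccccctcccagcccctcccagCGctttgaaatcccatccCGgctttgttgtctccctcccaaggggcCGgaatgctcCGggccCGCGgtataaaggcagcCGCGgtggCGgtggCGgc
SFRP5: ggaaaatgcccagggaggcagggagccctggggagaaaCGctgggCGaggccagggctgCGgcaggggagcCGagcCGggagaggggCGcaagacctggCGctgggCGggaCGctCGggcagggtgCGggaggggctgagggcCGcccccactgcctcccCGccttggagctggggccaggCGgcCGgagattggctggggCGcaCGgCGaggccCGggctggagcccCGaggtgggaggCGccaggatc
SFRP4: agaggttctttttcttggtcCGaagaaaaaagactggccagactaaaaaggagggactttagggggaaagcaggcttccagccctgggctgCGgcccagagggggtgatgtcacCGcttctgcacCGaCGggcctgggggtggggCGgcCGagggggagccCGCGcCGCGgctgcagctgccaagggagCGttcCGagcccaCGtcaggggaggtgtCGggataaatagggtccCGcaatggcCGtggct
SFRP2: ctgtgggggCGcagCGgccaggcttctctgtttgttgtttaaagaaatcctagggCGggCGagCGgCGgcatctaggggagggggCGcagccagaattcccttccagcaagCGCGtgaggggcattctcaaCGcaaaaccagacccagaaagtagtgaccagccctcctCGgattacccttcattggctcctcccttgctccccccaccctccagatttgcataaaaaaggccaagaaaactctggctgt

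WIF1 had the densest stretch, with 27 CpGs in 250 bases and an observed over expected CpG ratio of 0.990. SFRP5 held 21 CpGs (ratio 0.611), DKK1 held 18 (ratio 0.733) and SFRP4 held 17 (ratio 0.688). SFRP2 held 11 (ratio 0.531), which equals the median of 11 over 35116 RefSeq promoter stretches of the same length. The middle of that distribution was wide, from 3 CpGs at the lower quartile to 23 at the upper one, so that only WIF1 lay above the upper quartile. The letters TATAAA were found in the DKK1 stretch, starting 30 bases before the transcription start, and in none of the other 4 on either strand, against 10.7% of all RefSeq stretches of this length on either strand. SFRP1 and DKK3 are named without sequence.

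By position on GRCh37, SFRP1 lies on chromosome 8 from 41119481 to 41166992, SFRP2 on chromosome 4 from 154701743 to 154710235, SFRP4 on chromosome 7 from 37945534 to 38065297, and SFRP5 on chromosome 10 from 99526508 to 99531756, all on the minus strand. DKK1 lies on chromosome 10 from 54074041 to 54077802 on the plus strand, DKK3 on chromosome 11 from 11977754 to 12031316 and WIF1 on chromosome 12 from 65444406 to 65515085, both on the minus strand. Some genes overlap them on the opposite strand in the annotation, namely EPDR1 (within the longer SFRP4 transcripts), PRKG1-AS1 (over the start of DKK1) and USP47 (over the end of DKK3). The library kit keeps the strand, but whether the read counting used it is not given in the sources used here, so reads in those overlaps cannot be assigned with certainty.

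Recovered reads, the whole numbers behind the FPKM values, summed to between 22234485 and 25303899 per library outside H1299 and to 52634234 and 59735913 in the H1299 libraries. In H1299, between 81.9% and 85.5% of low read numbers were even, against 39.2% to 41.5% elsewhere, so its reads were halved wherever a counting interval is given. Epithelial markers (EPCAM, CDH1, KRT7, KRT8, KRT18, KRT19) were above 3 reads for 6 of 6 genes in A549, CL1-5, PC9 and H1792 Mock cells, 5 of 6 in H1299 and 4 of 6 in CL1-0, where they summed to only 0.986 FPKM in Mock, with KRT7 and KRT19 at 0 reads, and 3.05 FPKM after DAC. The 2 pairs of ATAC-seq libraries labelled CL1-5 and PC9 go against their labels. Of 106 genes with at least 5 FPKM in PC9 Mock mRNA and at most 3 reads in CL1-5, 91.5% carried a peak near their start in the Mock list under the CL1-5 label, against 45.3% under the PC9 label, and of 75 genes with the opposite mRNA pattern, 40% and 78.7% did. The peak names inside the lists also carry the other line's name, so these libraries are called by their labels throughout and no result below pairs their peaks with the mRNA of 1 line alone.

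In Mock cells the genes fell into those read in every line and those low or unread. SFRP1, DKK1 and DKK3 were above 3 reads in 6 of 6 lines. SFRP2 was above 3 reads in 0 of 6, WIF1 in 2, SFRP4 in 3 and SFRP5 in 4. Counted over genes and lines, 15 of 42 pairs were silent in Mock, meaning 3 recovered reads or fewer, with 1 in H1299, 4 each in PC9 and H1792, and 2 in each of the other lines. Over all genes and the same lines, 105531 pairs were silent in Mock and 110925 were above 3 reads, a larger silent share than among the members. By line, between 16307 (CL1-5) and 18904 (H1299) of the 36076 genes were silent. H1299 reads were not halved for this floor, so it lies at a lower FPKM there than in the other lines. SFRP4 in H1299 Mock, at 0.0388 FPKM, was above it, while SFRP2 in CL1-0 Mock, at 0.0417 FPKM, was silent. The order of lines given below has no replicate spread behind it, and neighbouring lines are compared only by exact Poisson intervals at the 95% level, which cover counting error only.

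SFRP1 in Mock cells was highest in CL1-5 at 84.8 FPKM, followed by PC9 at 16.2, A549 at 6.50, H1792 at 4.34, CL1-0 at 3.68 and H1299 at 1.22. In CL1-5 it lay above 98.8% of all genes in the library, and only the neighbours H1792 and CL1-0 had overlapping intervals.

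DKK1 in Mock cells spanned the widest range of the 3 genes read in every line, from 276 FPKM in A549 through 88.6 in H1792, 22.8 in PC9, 6.61 in CL1-0 and 2.31 in CL1-5 to 0.856 in H1299. No neighbouring pair of lines overlapped in counting error. In A549 this placed DKK1 above 99.5% of genes, and in H1299 above 67.4%.

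DKK3 was more even, at 13.7 FPKM in H1299, 12.4 in CL1-5, 8.85 in H1792, 4.48 in A549, 1.76 in CL1-0 and 0.913 in PC9. SFRP4 was read mainly in A549 at 2.55 FPKM and in CL1-0 at 0.247 FPKM. It had 8 reads in H1299 (0.0388 FPKM) and 0 or 1 read in CL1-5, PC9 and H1792. A549 was thus the line with the most SFRP4 as well as the most DKK1.

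SFRP5 was low wherever it was read, at 0.508 FPKM in A549, 0.323 in CL1-0, 0.261 in CL1-5 and 0.105 in H1299, with 0 reads in PC9 and H1792. Its neighbours in that order all overlapped in counting error. WIF1 was read in H1299 at 0.399 FPKM and in CL1-5 at 0.140 FPKM, and had 0 reads in A549, CL1-0, PC9 and H1792. SFRP2 never exceeded 2 reads in any of the 12 libraries, treated or not, and 3 reads of this gene would be 0.0258 to 0.0710 FPKM, depending on the library.

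**Figure D1:**
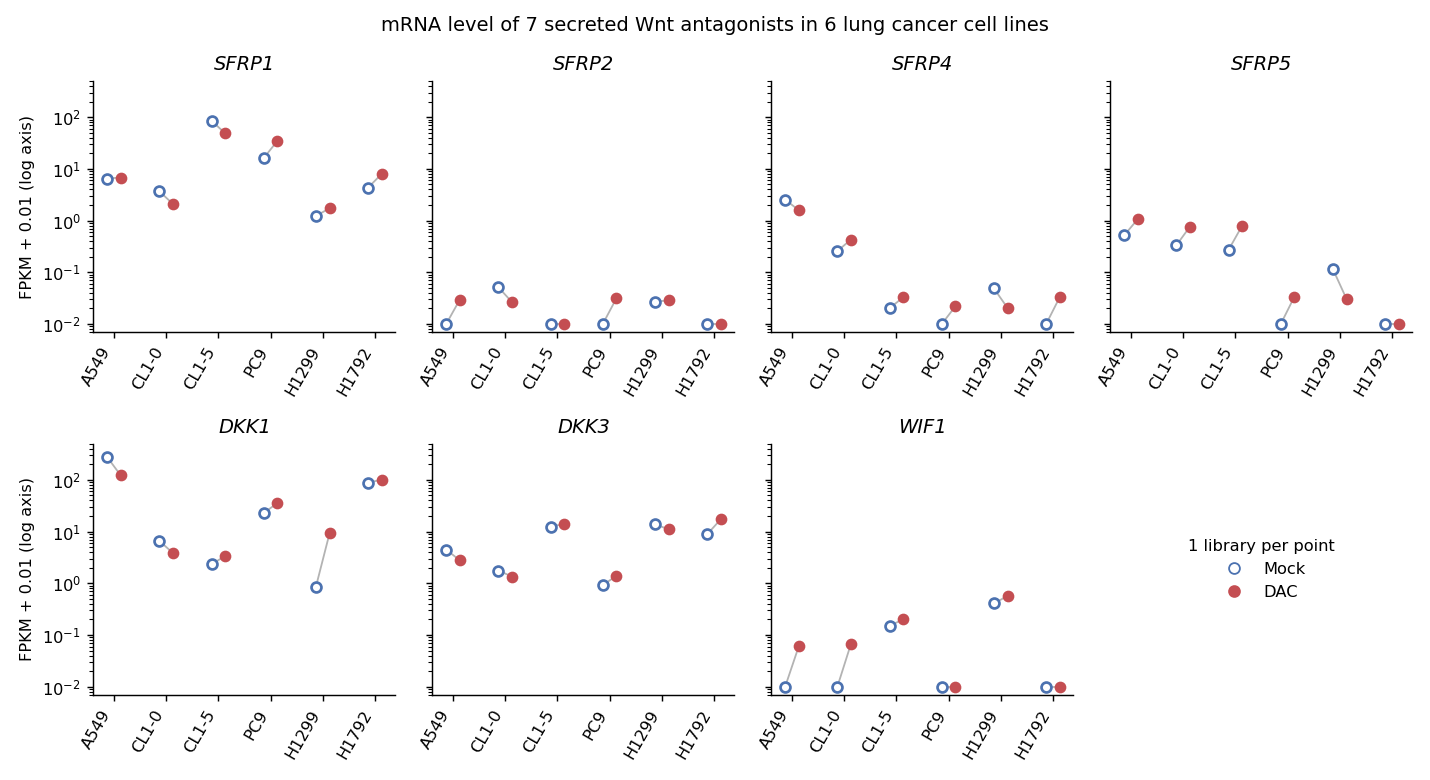
FPKM plus 0.01 on a log axis for each of the 7 genes in 6 lines, open circles for Mock and filled circles for DAC, 1 library per point; points at the bottom are libraries with 0 reads. SFRP2 stays at or below 0.0417 FPKM in all 12 libraries, DKK1 runs from 276 FPKM in A549 Mock to 0.856 in H1299 Mock, and the longest upward step among well-read genes is DKK1 in H1299.

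The next question was whether genes silent in Mock were read after DAC. Of the 15 silent pairs, 1 passed 3 reads after DAC, which was WIF1 in CL1-0 with 4 reads (0.0570 FPKM). The counting interval of its ratio to Mock, which had 0 reads, began at 0.526 and so includes 1. In A549, WIF1 had 3 reads after DAC (0.0501 FPKM), and it had 0 in PC9 and H1792. Over all genes and the same 6 lines, 14953 of 105531 pairs silent in Mock passed 3 reads after DAC. In the other direction, 2 pairs that were read in Mock had 2 reads after DAC, and both were in H1299, where SFRP4 had 8 reads in Mock and SFRP5 had 11. The counting intervals of both ratios include 1 (0.00549 to 2.73 for SFRP4 and 0.00392 to 1.49 for SFRP5). Over all genes and lines, 4454 of 110925 pairs above 3 reads in Mock had 3 or fewer after DAC, and in H1299 alone 540 of 17172. SFRP2 had 1 read after DAC in A549, CL1-0 and PC9, 2 in H1299 and 0 in CL1-5 and H1792.

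Among the genes with reads in both treatments, DKK1 in H1299 differed most. It was at 0.856 FPKM in Mock and 9.23 FPKM after DAC, or 108 and 1076 reads, a ratio of 10.8 with a counting interval from 8.14 to 14.5. In A549 the opposite was seen, with 276 FPKM in Mock and 122 after DAC, a ratio of 0.441 (0.429 to 0.454). The H1299 difference was 3.29 on the log2(FPKM + 0.1) scale, and 3.42 or 2.83 after rescaling to a common sum or quantile normalization. The A549 difference was -1.18 and moved to -0.83 and -0.55 with the same alternatives, so that it stayed lower but passed 2-fold only with the deposited scaling. DKK1 was also lower after DAC in CL1-0 (6.61 and 3.84 FPKM) and higher in CL1-5 (2.31 and 3.38), PC9 (22.8 and 35.7) and H1792 (88.6 and 101). After DAC, the H1299 level thus lay above those of CL1-0 and CL1-5, which it had been below in Mock cells.

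In H1299, epithelial markers were higher after DAC as well, with 5 of 5 tested genes at least 2-fold higher, against 12.9% of all expressed genes. The 6 genes summed to 112 FPKM in Mock and 672 after DAC. Fibroblast markers in H1299 had 3 of 4 tested genes at least 2-fold higher, with a sum over 8 genes of 0.286 FPKM in Mock and 2.84 after DAC. COL1A1 had 46 and 454 reads, COL1A2 had 2 and 338, and THY1 had 0 and 315. Outside H1299 the summed epithelial level ran from 0.986 to 3589 FPKM in Mock and from 3.05 to 2235 after DAC. Epithelial markers at least 2-fold higher there were 3 of 4 tested in CL1-0, 1 of 6 in CL1-5 and 0 of 6 in A549, PC9 and H1792. Fibroblast markers so changed were 3 of 4 in A549, 2 of 6 in CL1-0, 3 of 3 in CL1-5, 1 of 2 in PC9 and 4 of 7 in H1792. Between 8.35% and 18.1% of all expressed genes were at least 2-fold higher in those lines. The part of either list in the DKK1 difference was not tested.

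SFRP1 was 2.14 times higher after DAC in PC9, at 16.2 FPKM in Mock and 34.7 after DAC (counting interval of the ratio 2.02 to 2.27), and 1.85 times in H1792, at 4.34 and 8.02 FPKM. It was lower in CL1-5, at 84.8 and 49.0 FPKM (ratio 0.578), and in CL1-0, at 3.68 and 2.09 (ratio 0.566). A549 gave 6.50 and 6.81 FPKM and H1299 gave 1.22 and 1.73. CL1-5 kept the highest SFRP1 level of the 6 lines after DAC and PC9 the next.

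DKK3 was 1.95 times higher after DAC in H1792 (8.85 and 17.3 FPKM) and 1.52 times higher in PC9 (0.913 and 1.38 FPKM), and it was at 12.4 and 14.1 FPKM in CL1-5. It was lower in A549 (4.48 and 2.78 FPKM), CL1-0 (1.76 and 1.34) and H1299 (13.7 and 11.2). In H1792, fibroblast markers summed to 104 FPKM in Mock and 157 after DAC, against at most 5.39 and 6.21 in the other lines, with 7 and 8 of 8 genes above 3 reads and THY1 at 0 reads in Mock. Their part in the DKK3 and SFRP1 values of H1792 was not tested.

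SFRP5 was higher after DAC in the lines that read it best. It was at 0.508 and 1.06 FPKM in A549 (20 and 49 reads, ratio 2.08 with an interval from 1.21 to 3.69), at 0.323 and 0.754 in CL1-0 (14 and 41 reads, ratio 2.33, 1.25 to 4.64), and at 0.261 and 0.785 in CL1-5 (13 and 35 reads, ratio 3.005, 1.55 to 6.19). In H1299 it was at 0.105 FPKM in Mock and 0.0206 after DAC, or 11 and 2 reads, with an interval of the ratio from 0.00392 to 1.49 that includes 1. PC9 had 1 read after DAC and H1792 had 0 in both libraries.

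SFRP4 was at 2.55 and 1.58 FPKM in A549 (ratio 0.619, interval 0.496 to 0.772) and at 0.247 and 0.421 FPKM in CL1-0 (ratio 1.71, 0.997 to 3.02). WIF1 was at 0.399 and 0.559 FPKM in H1299 (54 and 70 reads, ratio 1.40, interval 0.825 to 2.41) and at 0.140 and 0.191 FPKM in CL1-5 (9 and 11 reads, 0.514 to 3.72). The intervals of WIF1 in both lines and of SFRP4 in CL1-0 include 1, as do those of SFRP4 and SFRP5 in H1299, so no difference was detectable there at this depth.

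Leukocyte markers gave 0.824 to 5.04 FPKM summed over 7 genes in Mock and 1.36 to 8.72 after DAC, with at most 4 and 5 genes above 3 reads in a library. CD3E had at most 2 reads in any library. Endothelial markers summed to at most 1.32 FPKM in Mock and 2.52 after DAC. VWF was at least 2-fold higher after DAC in A549, CL1-5, PC9 and H1299. Their part in the values above was not tested.

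Read by line at a 2-fold limit on the log2(FPKM + 0.1) scale, with 1 library per treatment and no test, at most 1 antagonist per line was past it in either direction. In A549, 0 of 5 members with enough signal were higher and 1 (DKK1) was lower, against 18.1% and 7.37% of all expressed genes. CL1-0 had 1 of 5 higher (SFRP5) and 0 lower, against 9.32% and 2.79%. CL1-5 had 1 of 5 higher (SFRP5) and 0 lower, against 8.35% and 6.45%. PC9 had 1 of 3 higher (SFRP1) and 0 lower, against 12.3% and 3.99%. H1299 had 1 of 4 higher (DKK1) and 0 lower, against 12.9% and 4.71%. H1792 had 0 of 3 in either direction, against 12.9% higher and 7.46% lower. Only 3 to 5 members could be counted in a line, so these shares cannot be set apart from the background.

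Over the 5 lines that were fitted together (those other than H1792), 0 of the 6 antagonists that passed the expression filter changed with DAC by limma with a block for each line. SFRP2 did not pass it. SFRP5 had the largest log2 fold change, 0.55 ± 0.33 (SE, adjusted p = 0.506), and was higher in 4 of 5 lines. Its estimate was 0.25 with a pseudocount of 1 and 0.88 without H1299. The largest SFRP5 differences of single lines were 1.01 in CL1-0 and 1.29 in CL1-5, the related pair. DKK1 had 0.50 ± 0.58 (adjusted p = 0.719, higher in 3 of 5), which became -0.19 without H1299. WIF1 had 0.38 ± 0.22 (adjusted p = 0.496 by limma, higher in 4 and equal at 0 reads in 1), and its size depended on the scale, from 0.074 with a pseudocount of 1 to 1.25 with a pseudocount of 0.01. SFRP1 had 0.01 ± 0.29 (adjusted p = 0.991), SFRP4 -0.02 ± 0.26 (adjusted p = 0.984) and DKK3 -0.12 ± 0.19 (adjusted p = 0.803). At an unadjusted p under 0.05, limma also called 0 of 6, and limma with voom on the recovered reads called 0 of 6 at the adjusted threshold.

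Of 22603 genes tested, 27 were higher and 0 lower at an adjusted p under 0.05, or 0.119% and 0%, and 1825 and 994 at an unadjusted p under 0.05. The median log2 fold change of the 6 antagonists was 0.20, beside 0.07 over all genes tested. The spread between lines was wide for DKK1, with an SD of 1.75 over the 5 line differences, against 0.82 for SFRP1 and SFRP5, 0.48 for SFRP4 and DKK3 and 0.26 for WIF1. A p above the threshold does not show that a gene stayed the same.

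**Figure D2:**
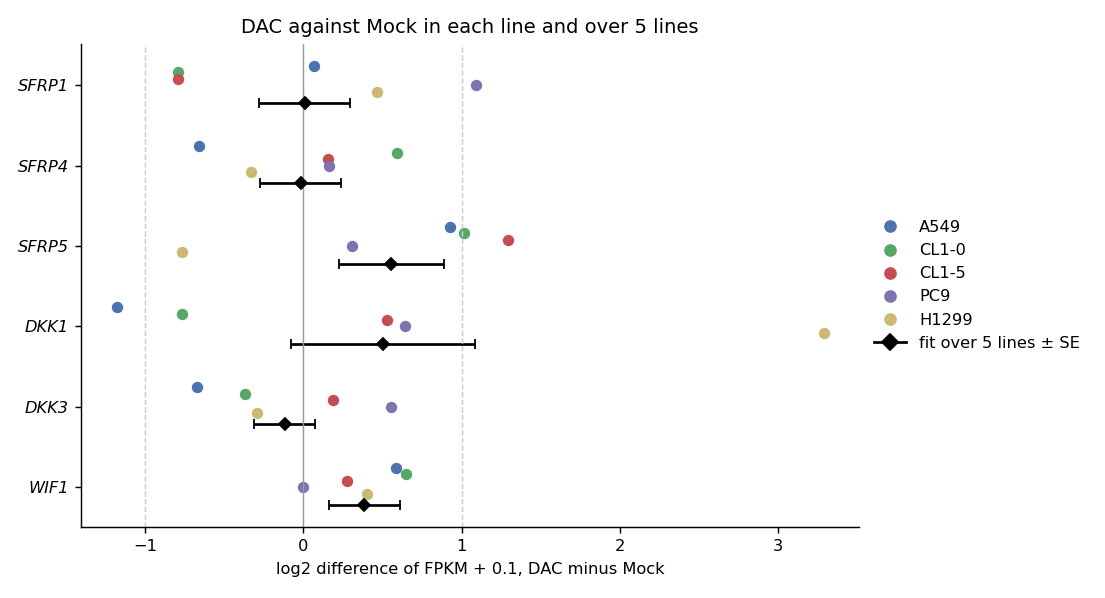
Difference of log2(FPKM + 0.1) between DAC and Mock for the 6 genes that passed the filter, coloured points for 5 lines and black diamonds with bars for the limma estimate ± SE over the 5 lines; dashed lines mark 2-fold. The lines lie on both sides of 0 for SFRP1, SFRP4, SFRP5, DKK1 and DKK3, and the H1299 point of DKK1 stands at 3.29.

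The other genes of the pathway were read from lists of further antagonists, ligands, receptors, the R-spondin axis, cytoplasmic transducers and target genes. Each list had 0 genes past the adjusted threshold in limma over 5 lines. At an unadjusted p under 0.05 the count was 1 higher among the further antagonists (SOST), 2 higher among the ligands, and 1 higher and 1 lower among the receptors, and 0 in the other lists. Among 5 further antagonists tested, SOST, which encodes the LRP5 and LRP6 binding protein sclerostin, had the largest value at 2.01 ± 0.57 (adjusted p = 0.282 by limma). With limma and voom on the recovered reads SOST passed the threshold, at 4.55 ± 0.66 (adjusted p = 0.0263). DKKL1 had the lowest value, at -0.45 ± 0.25 (adjusted p = 0.485). The median of those 5 was 0.01.

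SOST was well above its Mock level after DAC in single lines, as DKK1 was in H1299 (ratio 10.8). It was at 0.0553 FPKM in CL1-0 Mock and 2.50 after DAC (3 and 170 reads, ratio 45.2 with an interval from 15.2 to 221), at 0 and 0.985 FPKM in CL1-5 (0 and 55 reads), and at 0.473 and 5.56 FPKM in H1792 (27 and 307 reads, ratio 11.8). A549 gave 0 and 6 reads, PC9 gave 1 and 6, and H1299 gave 0 and 8. In CL1-5 the counting interval of the ratio began at 16.1, and the DAC level was 20.5 times that of 3 reads in the Mock library. In the same line WIF1 had 9 and 11 reads, SFRP4 had 1 and 2, and SFRP2 had 0 in both.

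Other antagonists past 2-fold in a line were few. FRZB, a frizzled-related protein close to SFRP4, was at 0.140 and 0.395 FPKM in H1792. SOSTDC1, a sclerostin relative, was at 0.0389 and 0.192 FPKM in PC9 (2 and 11 reads), where NOTUM had 1 and 11 reads and DKK4 had 0 and 4. NOTUM, a lipase that removes the lipid from Wnt proteins, was lower in CL1-0 at 3.73 and 1.15 FPKM. DKK2 was lower in H1299, with 32 reads in Mock and 2 after DAC.

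Of 13 Wnt ligands tested, 10 had a value above 0 and 3 below, with a median of 0.15 and a range from WNT10B at -0.27 ± 0.31 to WNT6 at 0.97 ± 0.40 (adjusted p = 0.387). Of 16 receptors and co-receptors, 11 lay above 0 and 5 below (median 0.19), from FZD2, a Frizzled receptor, at -0.65 ± 0.18 (adjusted p = 0.282) to KREMEN2, a DKK1 co-receptor, at 0.59 ± 0.40. R-spondins protect Wnt receptors from degradation. In their axis 6 genes were tested (median -0.07), from ZNRF3 at -0.13 to RSPO4, an R-spondin, at 0.74 ± 0.35. The 11 transducers ran from DVL2 at -0.24 to APC at 0.24 (median -0.10). The 10 target genes tested ran from MYC at -0.25 to AXIN2, a feedback inhibitor, at 0.48 ± 0.22 (adjusted p = 0.415), with a median of -0.06.

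**Figure D3:**
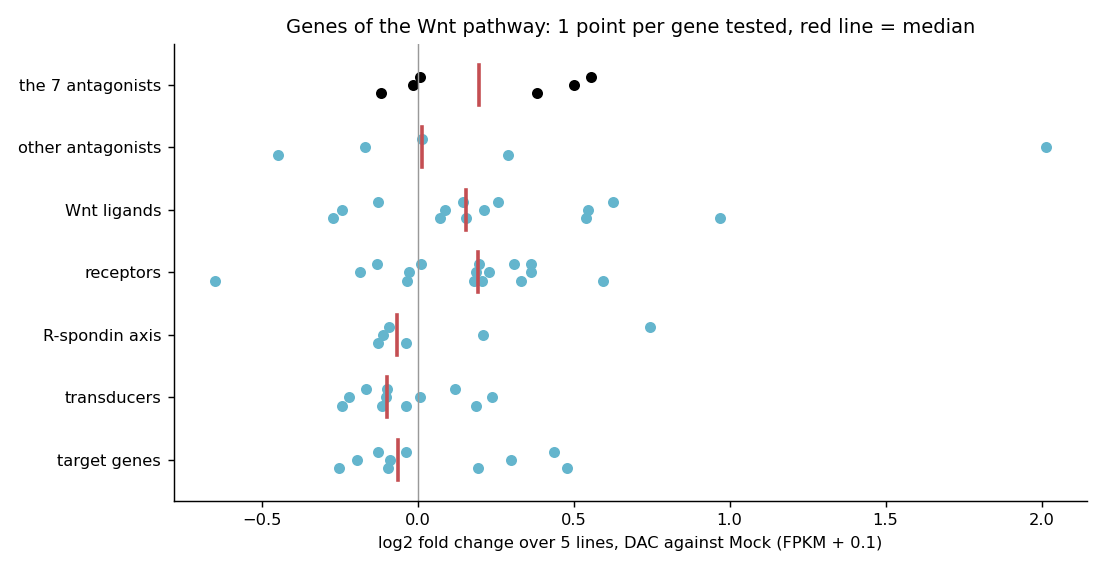
Log2 fold change over 5 lines (limma, FPKM plus 0.1) for each tested gene of the Wnt lists, black for the antagonists described here and blue for the others; red lines are medians. The 6 tested antagonists lie between -0.12 and 0.55, and the point at 2.01 is SOST.

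Chromatin at the start sites was read from the deposited peak lists, called per library with MACS2 at a broad cutoff of 0.1. A promoter peak is a peak that overlaps 3000 bp on either side of the start of the gene's canonical transcript, and 18277 protein-coding genes had such a start. SFRP1, SFRP5, DKK1 and DKK3 had a promoter peak in 8 of 8 libraries. In all, 6 of 7 members had one in A549 Mock and 7 after DAC, 6 and 7 in the libraries labelled CL1-5, 7 and 5 in those labelled PC9, and 6 and 6 in H1299. Between 74.1% and 82.1% of all genes had one in a library. The sequencing depth of each ATAC-seq library is unknown, and DAC lists held more peaks than Mock lists in each of the 4 pairs (58734 and 78199 in A549, 45354 and 63541 in H1299, 85710 and 97584 as labelled CL1-5, 71204 and 91061 as labelled PC9).

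DKK1 had a peak of 980 to 1390 bp over its start in 8 of 8 libraries, also in H1299 Mock, where the gene was at 0.856 FPKM. The deposited annotation lists that peak for PRKG1-AS1, the overlapping antisense gene, and so gives DKK1 no promoter peak. In H1299 its fold enrichment over background was 6.09 in Mock and 5.77 after DAC, beside the 10.8 times higher mRNA. A further peak, between 5271 and 5979 bases before the start, was listed for A549 and under the labels PC9 and CL1-5, in both treatments, and absent from both H1299 lists.

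WIF1 had a peak over its start in A549 (fold enrichment 6.61 in Mock and 7.46 after DAC), H1299 (7.56 and 7.35) and the libraries labelled PC9 (5.43 and 6.45). The 250 bases printed for WIF1 lay wholly inside those peaks. In the library labelled CL1-5 there was none in Mock and a peak of 3.11 after DAC (−log10 q of 1.59). A549 therefore had an accessible WIF1 start with 0 mRNA reads in Mock and 3 after DAC. A peak within 3000 bp of a silent start was common. Of the 4352 protein-coding genes silent in A549 Mock, 37.9% had one, as did 29.3% of 3619 in H1299 Mock. Of the genes above 3 reads, 90.6% and 85.1% did. Within 1000 bp the silent shares were 27.9% and 21.2%. Peaks over the start itself, as for WIF1, were not counted over all genes.

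SFRP2 was the reverse, with no peak over its start in 8 of 8 libraries and 0 of the 250 printed bases covered. The only peaks in its window lay between 2032 and 3418 bases away, with a fold enrichment between 2.93 and 4.07. They were found in A549 after DAC, in both libraries labelled CL1-5 and in the Mock library labelled PC9. SFRP4 had a peak over its start in 5 of 8 libraries and one just before it, between 112 and 533 bases away, in both libraries labelled CL1-5 (fold enrichment 2.88 to 4.11 in all), with none in the DAC library labelled PC9. A stronger peak, at the start of EPDR1 and between 3731 and 4755 bases before that of SFRP4, was present in 8 of 8.

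SFRP5 had a weak peak, between 2.76 and 3.90 in fold enrichment, which began 229 to 300 bp inside the gene in the Mock libraries of H1299 and labelled CL1-5 and reached over the start in the other 6. Of the 250 bases printed for SFRP5, 0 were covered in H1299 Mock and 67 after DAC, and 0 and 26 in the libraries labelled CL1-5. The libraries labelled PC9 had 63 and 234, while A549 went the other way, with 202 in Mock and 50 after DAC. A peak between 12001 and 12740 bases past the SFRP5 start, beyond the end of the gene, was stronger in each library, between 4.397 and 8.25. DKK3 had its peak before the canonical start, by 238 to 458 bp in Mock, near the start of its longer transcripts. After DAC that peak was wider in 4 of 4 pairs, at 628 and 863 bp in A549, 896 and 2440 bp in H1299, 681 and 1347 bp as labelled CL1-5, and 807 and 1677 bp as labelled PC9. This was not particular to DKK3. The WIF1 peak was wider in A549 (764 and 844 bp), H1299 (938 and 1022 bp) and as labelled PC9 (621 and 1053 bp). The SFRP1 peak was wider in A549 (630 and 897 bp) but narrower in H1299 (682 and 508 bp).

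SFRP1 had a peak over its start in 8 of 8 libraries, with a fold enrichment of 7.07 and 5.99 in A549, 4.77 and 3.32 as labelled CL1-5, 5.61 and 4.71 as labelled PC9, and 3.45 and 3.08 in H1299, Mock and DAC in turn. The libraries labelled PC9 held 5 and 6 peaks within the gene, against 1 and 1 in H1299, 2 and 3 in A549 and 1 and 4 as labelled CL1-5.

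**Figure D4:**
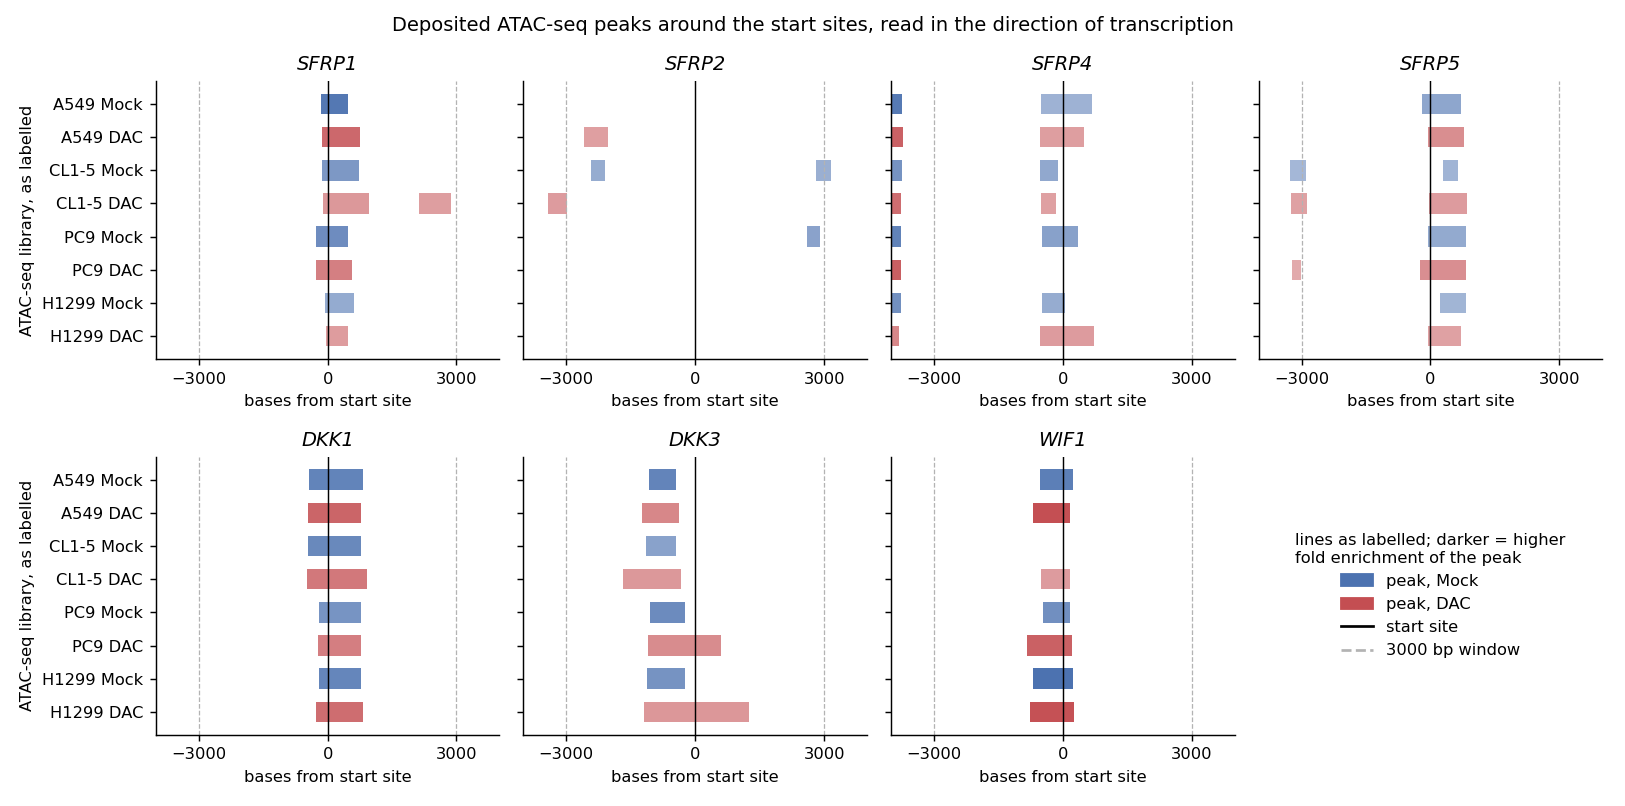
Deposited peaks around the start site of each gene (x axis in bases in the direction of transcription; rows are the 8 libraries as labelled, blue for Mock and red for DAC, darker for higher fold enrichment; dashed lines mark 3000 bp). DKK1 and SFRP1 carry a peak over the start in each row, SFRP2 in none, and WIF1 in all but the Mock library labelled CL1-5.

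After DAC, 1 member gained a promoter peak in A549 (SFRP2, of 1 without one in Mock) and 1 in the libraries labelled CL1-5 (WIF1, of 1), while 23% and 21.1% of all genes without one in Mock did so. The libraries labelled PC9 had no member without a peak in Mock (background 23.7%), and in H1299 SFRP2 gained none (background 19.3%). Losses were seen only in the libraries labelled PC9, for SFRP2 and SFRP4, or 2 of 7, against 2.37% of all genes there. The loss backgrounds of the other pairs, with 0 members lost, were 2.7% in A549, 3.94% as labelled CL1-5 and 2.85% in H1299. The SFRP2 gain in A549 rests on a weak peak 2032 bases away (−log10 q of 1.32), and it was not there with a 1000 bp window, at q under 0.01 or with equal peak numbers. The WIF1 gain rests on a peak with a −log10 q of 1.59 and was likewise lost at q under 0.01, where SFRP5 counted as a gain in the libraries labelled CL1-5 instead.

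Because the lists differ in their number of peaks, each gene was also ranked by its strongest promoter peak among the 18277 genes of the library, with 0 for no peak. The median fold enrichment of all peaks was lower after DAC in each pair. It was 4.36 and 3.81 in A549, 3.64 and 3.49 as labelled CL1-5, 3.84 and 3.29 as labelled PC9, and 3.64 and 3.08 in H1299. A gene can thus gain rank without a stronger peak. WIF1 was higher after DAC in 4 of 4 lines, from percentile 61.0 to 74.2 in A549, 0 to 30.3 as labelled CL1-5, 52.0 to 72.8 as labelled PC9 and 78.0 to 84.7 in H1299, a mean of 17.8 ± 10.1 points (SD, n = 4). DKK3 was lower in 4 of 4, by a mean of -13.2 ± 5.01 points, from 56.4 to 37.9 in A549, 41.2 to 34.8 as labelled CL1-5, 55.4 to 41.3 as labelled PC9 and 52.8 to 38.8 in H1299. SFRP1 was also lower in 4 of 4 (mean -7.14 ± 6.68 points), and SFRP5 (5.22 ± 3.51) and DKK1 (4.02 ± 0.628) were higher in 4 of 4. In an exact two-sided sign-flip permutation test each of these 5 genes had the smallest p that 4 lines allow, which is above 0.05, so none could pass it. For DKK1 only the rank rose, as the fold enrichment of its peak was lower after DAC in each pair. It was 6.25 and 6.21 in A549, 5.88 and 5.09 as labelled CL1-5, 5.09 and 4.75 as labelled PC9, and 6.09 and 5.77 in H1299. The WIF1 peak in H1299 was likewise at 7.56 and 7.35. With peaks at q under 0.01 alone the WIF1 mean was 10.2 points (higher in 3 of 4) and the SFRP5 mean 11.1. SFRP4 was lower in 3 of 4 pairs (-11.7 ± 17.4, exact p = 0.250), with H1299 at 0.0164 points. With the deposited gene and distance it was lower in 4 of 4 (mean -13.6), and with equal peak numbers in 2 of 4. SFRP2 (-3.49 ± 24.3, exact p = 1) had no common direction.

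Over 16623 genes with a promoter peak in any library, 6.86% were higher in 4 of 4 lines and 8.47% lower, beside 3 and 2 of the 7 members. The mean change had a median of 0.249 points over those genes, and its central 90% ran from -9.74 to 12.1, which WIF1, DKK3 and SFRP4 lay outside, SFRP4 at -3.23 and so inside without the pair labelled PC9.

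The level of each gene over the 12 libraries was last compared with every other gene tested. The points are 6 lines with 2 treatments each and not independent, and the top genes were picked among all of them, so the correlations only describe the pattern. DKK1 was most like NPTN (Pearson r of 0.965), ABCG2 (0.956) and VPS37A (0.953). SFRP1 was most like SLC39A1 (0.944), LOC105378753 (0.940) and LOC107985092 (0.939), and DKK3 like CNRIP1 (0.967), TRABD2A (0.955) and HINT3 (0.947). SFRP4, read mainly in A549, was most like LINC00993 (0.987), ANKRD30A (0.982) and PDE3A (0.979). SFRP5 was most like TMEM132D-AS1 (0.952), MIR4324 (0.938) and CDS2 (0.931), and WIF1 like RAB9B (0.989), ZNF729 (0.974) and HMX2 (0.967).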

How the data were processed

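mRNA-seq was measured in 12 libraries and Omni-ATAC-seq in 8. The authors trimmed mRNA reads with Trimmomatic, mapped them to hg19, counted them on GENCODE GRCh37 models and deposited FPKM values made with DESeq2 1.24.0, with 1 column per library. The deposited table also gives a mean normalized count per gene, a signal from which whole reads were recovered at a tolerance of 0.01. Its columns of the authors' own comparisons (log2 fold changes, errors, statistics and p-values) were not used. For ATAC-seq, the authors mapped with BWA and called broad peaks per library with MACS2 2.2.5. Those deposited lists hold the fold enrichment ratio, the −log10 p-value and the −log10 q-value of each peak, and the depth behind them is unknown.

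Here log2(FPKM + 0.1) was compared between treatments over 5 lines by limma 3.58.1 (R 4.3.3), blocking on the line, for genes with a mean of at least 0.1 FPKM, and p-values were adjusted by Benjamini-Hochberg over all genes tested. This scale shrinks the fold change of low genes. The block is the cell line itself. As a check, deviations of the Mock and DAC libraries of the same line correlated at 0.731 to 0.900, against -0.351 to 0.115 between lines. Each line has 1 library per treatment, so p-values measure the spread between lines. The related lines CL1-0 and CL1-5 entered as separate blocks, so the 5 lines may not be fully independent. Reads were given exact Poisson intervals, and ratios exact intervals, at the 95% level, for counting error only, and 3 reads were the floor. Peaks were compared within 3000 bp of the start. Per-line values have no test. The script for the fit was tested on simulated data. The alternatives were other pseudocounts, filters, scalings, windows, peak thresholds and sets of lines.

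The genes named are the 7 members, the lowest and highest gene of each list, list genes past 2-fold in a line, and the 3 genes most like each member. The members and lists were chosen with earlier results of these data known.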

Additional observations from a re-analysis of the deposited data

Results flagged for a closer look

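DKK1 differed in opposite directions between lines. The log2(FPKM + 0.1) difference between DAC and Mock was 3.29 in H1299 and -1.18 in A549, and with 1 library per line and treatment the difference between the lines was not tested.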

How the results depend on the processing

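Of 316 alternative values, 205 from other settings and 60 leaving out a line kept their direction and side of the threshold or, for counts, stayed within 1.5 times the count reported, 31 and 7 moved, and 6 and 7 reversed. The 205 include the mean promoter percentile change of each member with the CL1-5 and PC9 labels exchanged. An exchange cannot alter a mean over lines, so those values were bound to stay the same. No setting brought a member past the adjusted threshold. The count of all genes higher over 5 lines (27) was 53 with H1792 added, 0 with a pseudocount of 1, 2 with no filter, 17 with quantile normalization, 6 with no trend and 178 with voom, and 0 to 22 leaving out 1 line. The count lower (0) was 1 with voom and 0 to 1 leaving out 1 line. Without the replicate block, 10 genes were higher.

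Directions near 0 reversed. SFRP1 was -0.052 with quantile normalization and -0.26 to 0.21 leaving out 1 line. SFRP4 was 0.037 with H1792 added, 0.13 with a pseudocount of 0.01, 0.11 rescaled to a common sum, and -0.17 to 0.063 leaving out 1 line. DKK3 was 0.061 with H1792 added, 0.00312 rescaled to a common sum, and -0.29 to 0.019 leaving out 1 line. DKK1 ran from -0.19 without H1299 to 0.92 without A549. The SFRP2 promoter percentile ran from -12.1 to 7.52 leaving out 1 line. SFRP4 without A549 and WIF1 without H1299 fell under the filter and gave no value. WIF1 (0.38) kept its direction but not its size, at 0.074 with a pseudocount of 1, 0.16 with quantile normalization, 0.73 rescaled to a common sum, 1.01 with voom and 1.25 with a pseudocount of 0.01. The causes were not tested.

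Members past 2-fold in a line also moved. A549 had 1 higher with a pseudocount of 0.01 or a common sum, and 0 lower with a common sum, quantile normalization or a 4-fold limit. CL1-0 had 0 higher with a pseudocount of 1, quantile normalization or 4-fold, CL1-5 had 0 with a pseudocount of 1 or 4-fold, PC9 had 0 with 4-fold, and H1299 had 1 lower with a common sum or quantile normalization. Silent members at FPKM under 1 were 4 in CL1-0, 4 in CL1-5, 5 in H1299 and 25 in all, and 2 in H1299 at FPKM under 0.1. Promoter gains in A549 were 0 with a 1000 bp window, at q under 0.01 or with equal peak numbers. In the libraries labelled CL1-5 the gain was SFRP5 in place of WIF1 at q under 0.01. With the CL1-5 and PC9 labels exchanged they were 0 and 1, which changes only the line's name. Gains in all ran from 1 to 2, and members with a peak in every library from 4 to 5, leaving out 1 line. Low reads limit WIF1, SFRP2, SFRP4 and SFRP5.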
